A study of Arabidopsis thaliana with 18 samples.

Results

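The canonical histone genes of Arabidopsis were followed in whole seedlings held at 22°C or moved to 28°C. The group held 37 genes, chosen by locus, of the 33655 identifiers in the count table: 4 H2A, 2 H2A.X, 3 H2A.W, 9 H2B, 5 H3.1, 3 H3.3, 8 H4 and 3 H1 genes, without the H2A.Z genes. The study asked how the HEC and PIF transcription factors control gene expression at high ambient temperature. Seedlings of Col-0 (wild type), of a line labelled hec1hec2 and of pifQ, whose name stands for the combined mutant of PIF1, PIF3, PIF4 and PIF5, both in the Col-0 background, were grown on MS medium without sucrose at 22°C. They then stayed at 22°C or moved to 28°C for 24 hours, after 5 days by the labels and 6 by the study's text. By that text, continuous white light was given during the growth at 22°C and the 24 hours alike. The 6 groups had 3 libraries each, 18 in all. Sequencing was by 3′ Tag-Seq, which reads the 3′ end of polyadenylated transcripts, so that a transcript gives about 1 count whatever its length. Levels are given as CPM, counts scaled to 1e+06 per library after TMM adjustment of the library totals, and can be compared between genes.

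DNA is wound around octamers of the core histones H2A, H2B, H3 and H4, and linker histone H1 binds where the DNA enters and leaves. Most of these proteins are needed when DNA is copied, and their genes are known for a peak of expression in S phase. H3.1 is built into chromatin behind the replication fork by the chaperone CAF-1, whereas H3.3 is deposited outside replication, at transcribed genes, by HIRA and is made throughout the cell cycle. H2A.X is the form that is phosphorylated at broken DNA, and H2A.W marks heterochromatin. In plants, unlike in animals, the mRNAs of replication-dependent histones carry poly(A) tails, so a 3′ tag library can count them.

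The libraries held between 3631558 and 6285632 counts (median 4599322). Every one of the 37 genes passed the filter on low counts, along with 18078 genes in all, and the lowest count of any of them in any library was 10, for the H2B gene AT3G09480. HEC1 had a median of 3289 counts at 22°C and 2818 at 28°C in the libraries labelled hec1hec2, against 34 and 47 in Col-0. This sits at odds with that label, but counts of 3′ ends do not show whether a working HEC1 protein is made. Whether the label is right was not tested, so these are called the libraries labelled hec1hec2 throughout. In pifQ, PIF3 had at most 6 and PIF5 at most 12 counts, while PIF1 and PIF4 were still counted, and the same limit applies to them. The library pifQ 22°C replicate 2 stood apart: its counts fell in 3 steps along the chromosomes, to 81.3%, 59.4% and 30.2% of the level at the start of chromosome 1, whereas the other 17 libraries stayed between 98.5% and 106.4%. Of the histone genes, 6, 7, 13 and 11 lay in the 4 stretches, from the highest to the lowest. For most results in pifQ a value without this library is therefore given as well. Markers of seedling tissue were counted: RBCS1A, of the photosynthetic shoot, had at least 47257 counts in every library, and STM, of the shoot meristem, where cells divide, had 9 to 29. The pollen histone gene HTR10 had 0 in all 18. The seed marker CRA1, also meant to be near 0, was so at 22°C but rose at 28°C in each genotype, as given below.

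The sequence before the histone genes was read from the RefSeq annotation of TAIR10.1 by locus. The octamer CGCGGATC, known from plant histone gene promoters, was searched on both strands in the 250 bases before each gene's start. It occurred before 10 of the 37 histone genes (27%) and before 37 of all 27443 protein-coding genes (0.135%). The windows of the H3 genes are shown because the comparison of H3.1 with H3.3 runs through the text below. The octamer, or its reverse complement, is in capitals, and each window is written in the direction of its gene.
AT1G09200 (H3.1, chr1:2972407-2972434, minus strand): cgtaccttcaCGCGGATCagtgttagaa
AT1G09200 (H3.1, chr1:2972336-2972363, minus strand): tgtgatttcaCGCGGATCgtgatagaaa
AT5G65360 (H3.1, chr5:26120690-26120717, minus strand): ttagacgtgaCGCGGATCactaaaatta
AT5G10400 (H3.1, chr5:3271060-3271087, minus strand): taacacaggaCGCGGATCgtaaagatac
AT4G40040 (H3.3, chr4:18558946-18558972, minus strand): ttatttcagcGATCCGCGacggtttgt
The octamer thus stood before 3 of the 5 H3.1 genes, with 2 copies before AT1G09200, and before 1 of the 3 H3.3 genes, AT4G40040, there on the other strand. It was also found before 2 of 4 H2A, 1 of 3 H2A.W, 2 of 8 H4 and 1 of 3 H1 genes, and before none of the 9 H2B genes.

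The hexamer ACGTCA, a bZIP recognition sequence also described in plant histone promoters, occurred before 7 of the 9 H2B genes, 2 of the 5 H3.1 genes and 1 of the 3 H3.3 genes, against 7.69% of all protein-coding genes. These windows are shown because they set the H2B genes apart from the H2A and H4 genes, none of which had it, with the hexamer in capitals.
AT3G53650 (H2B, chr3:19889191-19889216, plus strand): gatggatgacACGTCAtcgatccgca
AT2G37470 (H2B, chr2:15736669-15736694, plus strand): tatttaagccACGTCAtcgatcctcg
HTB9 (H2B, AT3G45980, chr3:16898154-16898179, minus strand): caatattgacACGTCAtcgatcccgc
AT5G10980 (H3.3, chr5:3473616-3473641, minus strand): aaaactagccACGTCAtcgatcctcc
AT3G27360 (H3.1, chr3:10130108-10130133, minus strand): aataattaacACGTCAtcataaatat
The H3.3 gene AT5G10980 and the 3 H2B genes shared the run ACGTCATCGATC, which stood before 7 of the 27443 genes (0.0255%). This run was picked after the windows had been seen. The nonamer CATCCAACG stood before 0 of the 37 genes and 0.149% of all genes. E2F sites (TTTCCCGC, TTTGGCGC, TTTCGCGC or TTTGCCGC) stood before 3 of the 37, HTB2, AT3G45930 and AT3G46320, and before 1.41% of all genes. No 2 different motifs overlapped before these genes, and a match describes letters only. In gene structure, all 5 H3.1 and all 9 H2B genes had 1 exon, while the H3.3 genes AT5G10980, AT4G40030 and AT4G40040 had 3, 4 and 5.

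The level of most core histone genes was lower at 28°C, in all 3 genotypes. In Col-0, 23 of the 37 genes fell and 1 rose at an FDR of at most 0.05 (edgeR's quasi-likelihood test with Benjamini-Hochberg adjustment over 18078 genes), where 12.8% of all tested genes fell and 13.2% rose. In the libraries labelled hec1hec2, 19 fell and 3 rose, against a background of 14.3% lower and 14.9% higher. In pifQ, 23 fell and 1 rose (14.3% and 13.1% of all genes), and without replicate 2 at 22°C, 25 fell and 1 rose (14.3% and 13.9%). The count in the libraries labelled hec1hec2 was the least firm, since without its 28°C replicate 1 it went down to 13 lower and 1 higher. In whole seedlings, fewer dividing cells and less histone mRNA in each of them cannot be told apart.

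The falls were shallow. Over the 37 genes the log2 fold changes had medians of −0.51 (Col-0), −0.46 (libraries labelled hec1hec2) and −0.55 (pifQ, or −0.66 without replicate 2 at 22°C), beside medians of 0.04, 0.05 and 0.00 over all tested genes. With a change of at least 2-fold required as well, 1 gene fell in Col-0 and 1 in the libraries labelled hec1hec2 (4.09% and 4.12% of all genes), and 9 fell in pifQ (3.72%), or 7 without replicate 2 at 22°C (3.24%). HIS1-3 was the 1 that rose by this rule in each genotype, where 3.86%, 4.81% and 4.1% of all genes did, or 4% in pifQ without that library. In Col-0, all 3 libraries at 28°C lay below all 3 at 22°C for 26 of the 37 genes, which held for 21.1% of all tested genes. This was so for 24 genes in the libraries labelled hec1hec2 (21.9% of all genes). In pifQ, with replicate 2 at 22°C included, it was so for 17 genes, with no share of all genes at hand to read this count against.

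**Figure D1:**
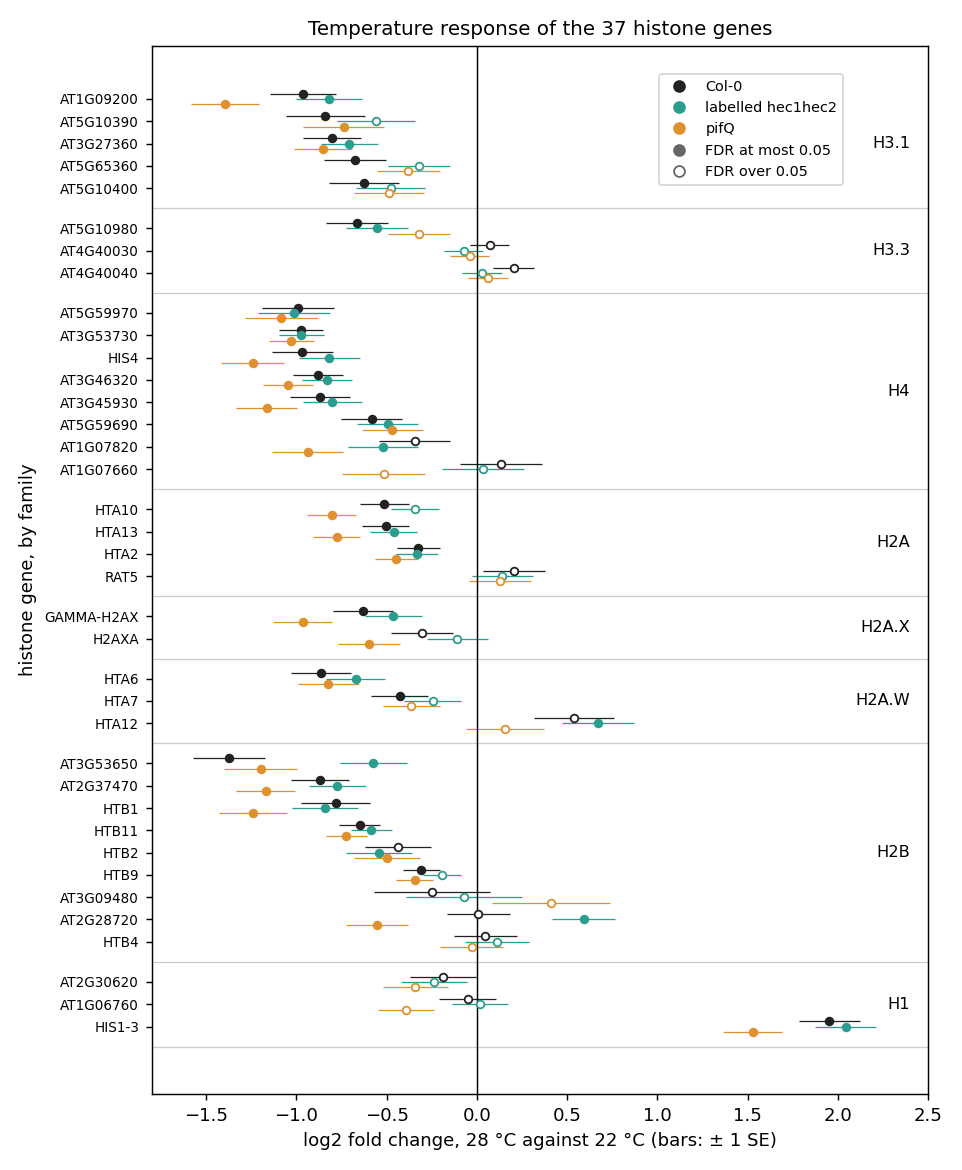
Temperature response of each of the 37 histone genes, by family, as the log2 fold change of 28°C against 22°C with 1 standard error, in the 3 genotypes (filled points: FDR at most 0.05, edgeR). Most points of the H3.1, H4, H2A and H2B families lie left of 0, the H3.3 genes AT4G40030 and AT4G40040 and the H2B gene HTB4 sit near 0, and HIS1-3 stands alone at the right, from 1.53 in pifQ to 2.04 in the libraries labelled hec1hec2.

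Of these genes, 16 of the 37 fell in all 3 genotypes (17 without pifQ 22°C replicate 2), 27 fell in at least 1, and 10 in none. The matching shares of all tested genes were not computed, so these counts across genotypes have no background beside them. The 16 were 6 H4, 4 H2B, 2 H2A, 2 H3.1, 1 H2A.X and 1 H2A.W gene. The 19 genes with a single exon in every transcript had a median log2 fold change of −0.78 in Col-0, −0.57 in the libraries labelled hec1hec2 and −0.74 in pifQ, and the other 18 had −0.31, −0.24 and −0.42. The pifQ medians became −0.85 and −0.35 without replicate 2 at 22°C. All single-exon genes were H2B, H3.1 or H4 genes, so this split cannot be told apart from one between families. In Col-0 the median was −0.55 for the 10 genes with an octamer and −0.44 for the 27 without, in the libraries labelled hec1hec2 −0.40 and −0.52, and in pifQ −0.50 and −0.60. The order of the last pair turned when replicate 2 of pifQ at 22°C was left out, to −0.69 with an octamer and −0.60 without.

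The replication-dependent H3.1 and the replication-independent H3.3 were compared through the share of all H3 counts that fell on the 5 H3.1 genes. In Col-0 this share was 23.8, 27.2 and 25.9% at 22°C and 18.1, 15.8 and 16.5% at 28°C. The shares in the libraries labelled hec1hec2 were 23.3, 25.2 and 24.9% at 22°C and 19.4, 19.1 and 19.5% at 28°C. In pifQ it was 23.7, 21.1 and 23.0% at 22°C and 14.7, 16.7 and 13.8% at 28°C. The highest share at 28°C was thus below the lowest at 22°C in each genotype, and the fall of the mean was 8.81 percentage points in Col-0, 5.13 in the libraries labelled hec1hec2 and 7.56 in pifQ, or 8.30 there without replicate 2 at 22°C. Counting error was small beside this: the exact binomial 95% interval of the first Col-0 library at 22°C ran from 22.7% to 24.9%, and such intervals cover counting error only. Because the share is taken within a library, it does not depend on how the libraries are scaled. It is given as a description with no test, since the genes were chosen with earlier results known.

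**Figure D2:**
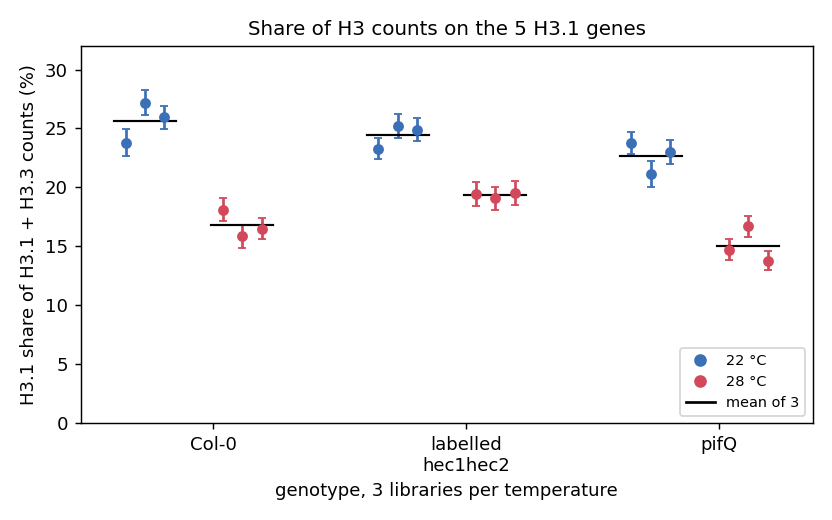
Share of H3 counts (H3.1 plus H3.3, in percent) on the 5 H3.1 genes in each of the 18 libraries, with exact binomial 95% intervals and the mean of each group of 3. The 28°C libraries lie between 13.8% and 19.5% and the 22°C libraries between 21.1% and 27.2%.

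Each of the 5 H3.1 genes was lower at 28°C in Col-0. AT1G09200 had 77.6, 90.4 and 90.1 CPM at 22°C and 50.9, 45.1 and 36.5 CPM at 28°C in Col-0. Its level in libraries labelled hec1hec2 was 77.2, 80.4 and 93.0 CPM at 22°C and 46.3, 48.3 and 47.3 CPM at 28°C. In pifQ its level was 79.4, 128 and 69.2 CPM at 22°C and 31.7, 43.5 and 29.4 CPM at 28°C. The temperatures did not overlap in any genotype, and the log2 fold changes were −0.96 (SE 0.18, FDR 3.20e-04), −0.82 (SE 0.18, FDR 0.00116) and −1.39 (SE 0.19, FDR 3.31e-06). In pifQ the value rests in part on replicate 2 at 22°C, where this gene lies in the stretch of highest counts, and without that library it was −1.09.

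AT3G27360 had 46.1, 71.3 and 57.7 CPM at 22°C and 28.3, 38.1 and 34.5 CPM at 28°C in Col-0. In libraries labelled hec1hec2 it had 55.5, 62.9 and 56.7 CPM against 37.1, 33.6 and 36.6 CPM at 28°C. Levels in pifQ were 48.8, 53.4 and 58.3 CPM at 22°C and 24.9, 35.6 and 28.4 CPM at 28°C. This gene fell in each genotype, without overlap, with changes of −0.80, −0.71 and −0.85 on the log2 scale (FDR 5.01e-04, 0.0012 and 2.62e-04). Its model shares 328 bases with its neighbour AT3G27380 on the same strand, so how its counts were divided between them is uncertain.

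The other 3 H3.1 genes lie on chromosome 5, in the stretch where pifQ 22°C replicate 2 had lost most counts. AT5G65360, the H3.1 gene with the highest level, had 99.3, 131 and 134 CPM at 22°C and 74.0, 76.7 and 77.7 CPM at 28°C in Col-0. Libraries labelled hec1hec2 had 83.2, 123 and 118 CPM and 85.2, 85.3 and 88.4 CPM, with replicate 1 at 22°C below all 3 libraries at 28°C. In pifQ the values were 99.0, 61.7 and 109.5 CPM at 22°C and 60.7, 80.1 and 67.6 CPM at 28°C. The fall passed the test in Col-0 (−0.67, FDR 0.00507), while the log2 fold change was −0.32 in the libraries labelled hec1hec2 (FDR 0.167) and −0.38 in pifQ (FDR 0.109). Without pifQ 22°C replicate 2 the last value became −0.58 with an FDR of 0.00155.

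AT5G10400 had 81.1, 88.4 and 87.2 CPM at 22°C and 59.8, 49.1 and 57.0 CPM at 28°C in Col-0. Its values under the hec1hec2 label were 74.0, 91.0 and 87.3 CPM and 62.6, 64.5 and 53.9 CPM. Those in pifQ were 78.1, 37.4 and 82.3 CPM and 42.7, 58.8 and 40.4 CPM. The groups overlapped only in pifQ, through its replicate 2 at 22°C, and the log2 fold changes were −0.63 (FDR 0.0185), −0.48 (FDR 0.063) and −0.49 (FDR 0.0678), the last −0.76 without that library (FDR 4.16e-05). Its neighbour AT5G10390 had the lowest level of the H3.1 genes, at 38.9, 51.3 and 45.2 CPM against 25.9, 27.8 and 22.4 CPM in Col-0. Values in the libraries labelled hec1hec2 were 36.8, 43.2 and 46.5 CPM and 28.2, 30.7 and 26.8 CPM, and in pifQ 47.1, 16.9 and 39.2 CPM and 19.9, 23.4 and 19.3 CPM. It fell, with changes of −0.84 in Col-0 and −0.74 in pifQ on the log2 scale (FDR 0.00608 and 0.0159), and the value in the libraries labelled hec1hec2 was −0.56 (FDR 0.0533). Its pifQ value was −1.05 without replicate 2 at 22°C, the library through which the temperatures overlapped there. In all, 5 of 5 H3.1 genes fell in Col-0, 2 of 5 in the libraries labelled hec1hec2, and 3 of 5 in pifQ, or 5 of 5 there without replicate 2 at 22°C.

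The 3 H3.3 genes encode H3.3 but did not give 1 common pattern. AT4G40040 was the most abundant of all 37 histone genes, with a mean of 717 CPM over the 18 libraries and 63.0% of the H3.3 level. It had 650.4, 679 and 698 CPM at 22°C and 658, 883 and 794 CPM at 28°C in Col-0. Levels in the libraries labelled hec1hec2 were 596, 694 and 663 CPM and 674, 683 and 636 CPM, and in pifQ 680.4, 784 and 781 CPM and 685, 843 and 817 CPM. The temperatures overlapped in every genotype, with log2 fold changes of 0.20 (SE 0.11), 0.03 (SE 0.11) and 0.06 (SE 0.11) that did not pass the test (FDR 0.197, 0.876 and 0.723). Without pifQ 22°C replicate 2 the pifQ value was 0.10.

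AT4G40030, which starts 42 bases beyond the end of AT4G40040 on the same strand, had 207, 203 and 220.3 CPM at 22°C and 254, 204 and 204 CPM at 28°C in Col-0. Its level in libraries labelled hec1hec2 was 256, 236 and 263 CPM and 238, 250.5 and 229 CPM, and those of pifQ 200.3, 206 and 181 CPM and 201, 188 and 182 CPM. Its log2 fold changes were 0.07, −0.07 and −0.04 (SE 0.11, 0.11 and 0.11, FDR 0.679, 0.654 and 0.823), and the temperatures overlapped in all 3 genotypes, the pifQ value being −0.00 without replicate 2 at 22°C. The third H3.3 gene, AT5G10980, behaved otherwise. It had 241, 278 and 263 CPM at 22°C and 168, 170.3 and 156 CPM at 28°C in Col-0. In libraries labelled hec1hec2 it had 224, 258 and 287 CPM and 165, 182 and 177 CPM. In pifQ the values were 251, 119 and 239 CPM and 156, 173 and 159 CPM. It fell without overlap in Col-0 (−0.66, SE 0.17, FDR 0.00541) and in the libraries labelled hec1hec2 (−0.55, SE 0.17, FDR 0.016), within the range of the H3.1 genes there. In pifQ its log2 fold change was −0.32 (FDR 0.172), and −0.59 without replicate 2 at 22°C (FDR 3.20e-05).

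**Figure D3:**
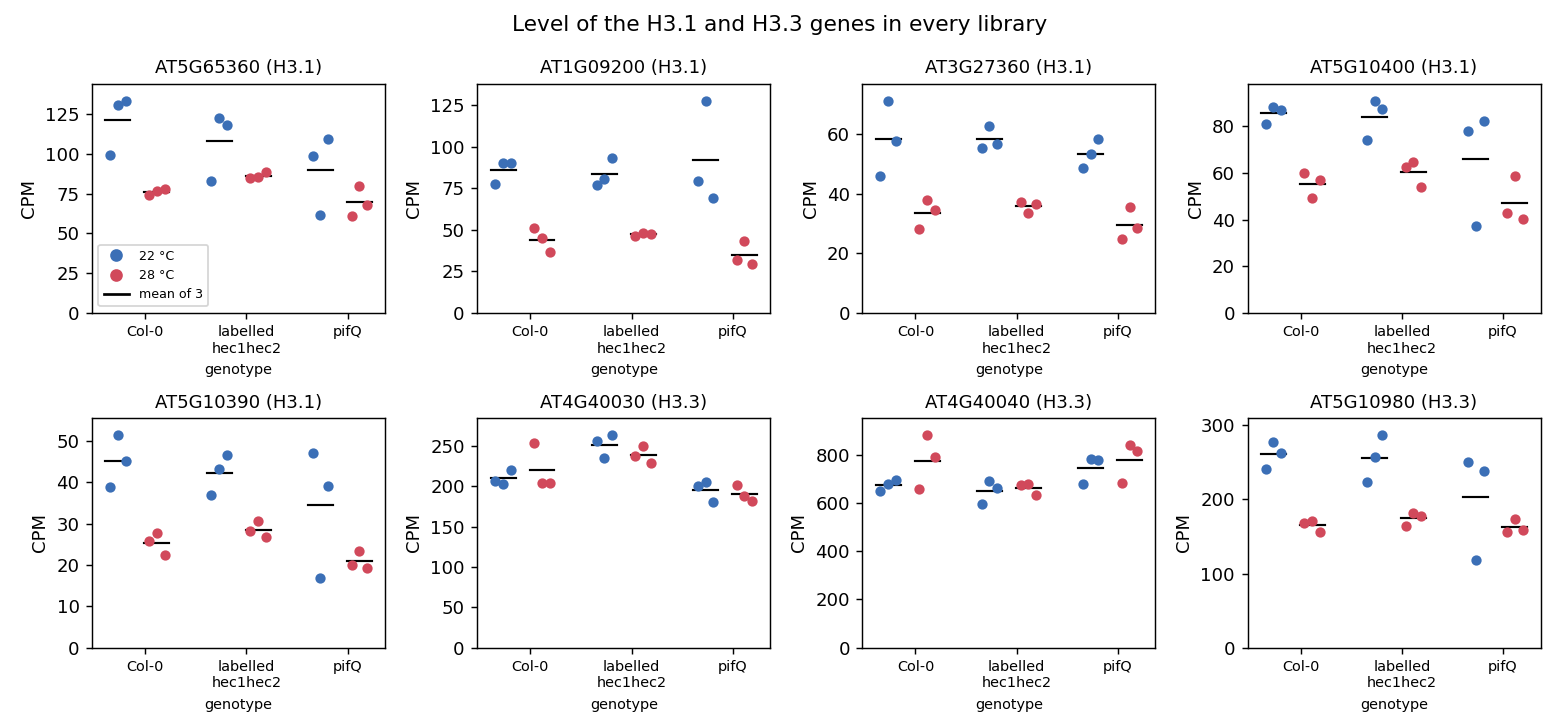
Level in CPM of the 5 H3.1 and 3 H3.3 genes in each library, by genotype and temperature, with the mean of each group of 3 libraries. The 28°C points of the H3.1 genes and of the H3.3 gene AT5G10980 lie below the 22°C points in Col-0, those of AT4G40030 and AT4G40040 do not, and pifQ 22°C replicate 2 is low for the genes of chromosome 5 and high for AT1G09200.

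Summed over its genes, H3.1 had 343, 433 and 414 CPM at 22°C and 239, 237 and 228 CPM at 28°C in Col-0. The sum at 28°C was 0.592 of that at 22°C in Col-0, 0.686 in the libraries labelled hec1hec2 and 0.601 in pifQ (0.569 without replicate 2 at 22°C). For H3.3 the ratios were 1.01, 0.93 and 0.989 (0.973), and the 2 temperatures overlapped in each genotype. In the libraries labelled hec1hec2 the H3.3 ratio was 0.93 with TMM scaling and 1.01 with plain CPM. H4, which pairs with both kinds of H3, went with H3.1: its ratios were 0.593, 0.607 and 0.534 (0.542). In Col-0 the H4 sum was 2.22 to 2.45 times the H3.1 sum at 22°C and 2.11 to 2.39 times at 28°C, while the H3.3 sum was 2.68 to 3.20 times the H3.1 sum at 22°C and 4.52 to 5.31 times at 28°C. All 37 genes together took 0.431% to 0.475% of a library's counts in Col-0 at 22°C and 0.365% to 0.39% at 28°C.

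**Figure D4:**
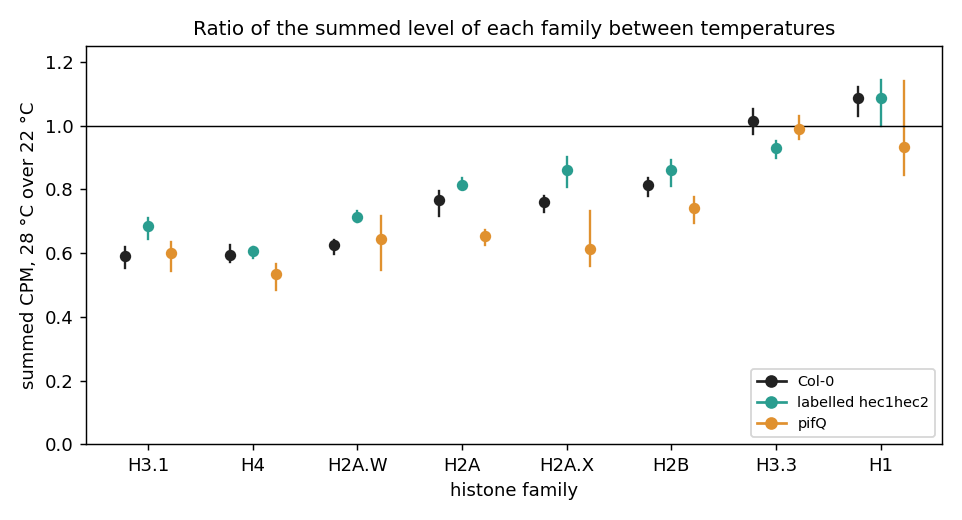
Ratio of the summed CPM of each histone family at 28°C to that at 22°C, by genotype, with lines for the lowest and highest ratio when each library of the 2 groups is left out in turn. H3.1 and H4 sit between 0.534 and 0.686, H3.3 between 0.930 and 1.01, and H1 between 0.932 and 1.09 with all libraries.

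Of the 8 H4 genes, which encode the partner of H3 in the nucleosome core, 6 fell in Col-0, 7 in the libraries labelled hec1hec2 and 7 in pifQ, the last 7 also without replicate 2 at 22°C. AT5G59690, the H4 gene with the highest level, had 217, 226 and 236 CPM at 22°C and 159, 164 and 131 CPM at 28°C in Col-0. Libraries labelled hec1hec2 had 223, 234 and 253 CPM and 165, 173 and 166 CPM, and in pifQ 213, 111 and 224 CPM and 117, 151 and 129 CPM. It fell, with changes of −0.58, −0.49 and −0.47 on the log2 scale (FDR 0.0127, 0.0285 and 0.0426), and the last was −0.72 without pifQ 22°C replicate 2, which was low. Near its 3′ end, 13.1% of the stretches of 50 bases also occur in other H4 genes, so how such reads were divided is uncertain.

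The H4 gene AT3G53730 had 177, 190.2 and 177 CPM at 22°C and 114, 83.1 and 80.0 CPM at 28°C in Col-0. Its values under the hec1hec2 label were 169, 173 and 171 CPM and 82.7, 87.6 and 91.8 CPM, and in pifQ 138, 142 and 128 CPM and 65.2, 73.4 and 61.8 CPM. Its log2 fold changes of −0.97, −0.97 and −1.03 (SE 0.12, 0.12 and 0.13, FDR 1.69e-06, 1.20e-06 and 9.64e-07) came with no overlap of the temperatures in any genotype, and the fall in pifQ also passed without replicate 2 at 22°C (FDR 5.28e-08). HIS4 (AT2G28740) had 119, 153 and 141 CPM at 22°C and 66.6, 77.7 and 67.9 CPM at 28°C in Col-0. Values in the libraries labelled hec1hec2 were 110.1, 138 and 135 CPM and 73.5, 73.1 and 70.7 CPM, and in pifQ 118, 191 and 112 CPM and 51.2, 72.8 and 53.1 CPM. HIS4 fell, with changes of −0.97, −0.82 and −1.24 (FDR 1.42e-04, 6.32e-04 and 6.05e-06), the last −0.96 without pifQ 22°C replicate 2.

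AT5G59970 had 105, 115 and 121 CPM at 22°C and 63.3, 61.8 and 46.6 CPM at 28°C in Col-0. Levels in the libraries labelled hec1hec2 were 101, 112 and 120.0 CPM and 54.8, 64.3 and 45.8 CPM, and in pifQ 101, 51.1 and 99.8 CPM and 32.6, 51.4 and 35.4 CPM. It was the single core histone gene past 2-fold in the libraries labelled hec1hec2 (−1.01, FDR 3.24e-04), beside −0.99 in Col-0 (FDR 5.56e-04) and −1.08 in pifQ (FDR 2.59e-04), the last −1.33 without replicate 2 at 22°C. Without replicate 3 at 22°C of the libraries labelled hec1hec2, no gene fell by 2-fold there.

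AT3G45930 and AT3G46320 have the same bases around their E2F match and share stretches of 50 identical bases near their 3′ ends with other H4 genes, in 7.69% and 15.7% of positions, so how such reads were divided between them is uncertain. AT3G45930 had 68.3, 85.7 and 80.8 CPM at 22°C and 40.9, 48.9 and 39.4 CPM at 28°C in Col-0, 68.5, 84.1 and 84.6 CPM and 38.2, 53.4 and 44.3 CPM in the libraries labelled hec1hec2, and 68.8, 85.9 and 75.6 CPM and 27.0, 44.3 and 31.1 CPM in pifQ. AT3G46320 had 70.4, 76.8 and 77.4 CPM and 45.5, 39.1 and 37.5 CPM, 78.1, 86.0 and 74.9 CPM and 43.1, 45.6 and 45.6 CPM, and 71.5, 83.8 and 68.0 CPM and 35.6, 43.7 and 28.6 CPM in the same order. The former fell, with changes of −0.87, −0.80 and −1.16 and the latter with changes of −0.88, −0.83 and −1.05 on the log2 scale, with no FDR above 4.96e-04. Without pifQ 22°C replicate 2 the pifQ values were −1.08 and −0.96. AT1G07820 fell in the libraries labelled hec1hec2 and in pifQ (−0.52 and −0.94, FDR 0.0468 and 7.95e-04, the latter −0.60 without replicate 2 at 22°C) and had −0.34 in Col-0 (FDR 0.211). It shared 18.2% of its 3′ positions with other H4 genes. AT1G07660, the H4 gene with the lowest level, fell in none (0.13, 0.03 and −0.52, FDR 0.714, 0.934 and 0.0993, the last value −0.10 with an FDR of 0.739 without that library), and shared 31.9% of its 3′ positions with other H4 genes.

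Among the 9 H2B genes, whose product pairs with H2A, 5 fell in Col-0, 5 fell and 1 rose in the libraries labelled hec1hec2, and 7 fell in pifQ (6 without replicate 2 at 22°C). The gene with the highest level did not: HTB4 had 252, 329 and 304 CPM at 22°C and 284, 316 and 315 CPM at 28°C in Col-0. Under the hec1hec2 label it had 233, 348 and 334 CPM and 366, 323 and 301 CPM, and in pifQ 261, 157 and 290.3 CPM and 201, 276 and 219 CPM. The temperatures overlapped throughout, and HTB4, which held 34.9% of the H2B level, had log2 fold changes of 0.05, 0.11 and −0.03 (FDR 0.876, 0.671 and 0.924), the last −0.25 without pifQ 22°C replicate 2 (FDR 0.183). HTB4 was also 1 of the 2 H2B genes with no hexamer in its window.

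AT3G53650 was the single gene that fell by 2-fold in Col-0, at a low level. It had 54, 68 and 92 counts (13.8, 15.4 and 19.5 CPM) at 22°C and 37, 20 and 26 counts (8.05, 5.40 and 5.33 CPM) at 28°C in Col-0. Under the hec1hec2 label the values were 15.8, 13.1 and 15.7 CPM and 10.1, 10.9 and 8.95 CPM, and in pifQ 14.0, 13.5 and 13.1 CPM and 6.00, 5.49 and 6.22 CPM. It fell, with changes of −1.37 (SE 0.20, FDR 1.24e-05) in Col-0, −0.57 (SE 0.19, FDR 0.0208) in the libraries labelled hec1hec2 and −1.20 (SE 0.20, FDR 8.14e-05) in pifQ, without overlap in any, and −1.20 in pifQ without replicate 2 at 22°C. Although the first 2 values differ most of all members, by 0.80 on the log2 scale, that difference did not pass its own test (edgeR, FDR 0.950).

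HTB1 (AT1G07790) had 41.5, 45.0 and 36.0 CPM at 22°C and 23.9, 25.6 and 21.7 CPM at 28°C in Col-0. Libraries labelled hec1hec2 had 43.1, 53.8 and 42.3 CPM and 25.3, 29.0 and 23.4 CPM, and in pifQ 38.6, 68.2 and 40.6 CPM and 24.2, 20.3 and 17.4 CPM. It fell, with changes of −0.78, −0.84 and −1.24 on the log2 scale (FDR 0.00316, 0.00103 and 1.98e-05), and without pifQ 22°C replicate 2, which had its highest value, the last was −0.94. AT2G37470 had 53.5, 52.3 and 56.2 CPM at 22°C and 30.03, 34.3 and 24.8 CPM at 28°C in Col-0. Its values under the hec1hec2 label were 49.0, 44.7 and 58.2 CPM and 30.2, 28.6 and 30.03 CPM, and in pifQ 50.4, 65.1 and 49.1 CPM and 21.7, 30.7 and 20.5 CPM. It fell, with changes of −0.87, −0.77 and −1.17 (FDR 2.38e-04, 5.69e-04 and 5.92e-06), without overlap in any genotype, the last −1.03 without pifQ 22°C replicate 2.

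HTB11 fell in all 3 genotypes (−0.65, −0.59 and −0.72), HTB9 in Col-0 and pifQ (−0.31 and −0.34), and HTB2 in the libraries labelled hec1hec2 and pifQ (−0.54 and −0.50), all at an FDR of at most 0.043. Their pifQ values were −0.73, −0.34 and −0.72 without replicate 2 at 22°C. AT2G28720 went opposite ways: it rose in the libraries labelled hec1hec2 (0.59, FDR 0.0111) and fell in pifQ (−0.55, FDR 0.017), and the latter was −0.33 (FDR 0.102) without replicate 2 at 22°C. In Col-0 it had 0.01 (FDR 0.977), and neither difference from Col-0 passed its test (edgeR, FDR 1.00 and 0.607). AT3G09480, with 10 to 34 counts a library, passed the test in no genotype.

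Of the 4 H2A genes, 3 fell in Col-0, 2 in the libraries labelled hec1hec2 and 3 in pifQ, the last 3 also without replicate 2 at 22°C. HTA10 (AT1G51060), with 54.2% of the H2A level, had 250.3, 248 and 228 CPM at 22°C and 206, 148 and 154 CPM at 28°C in Col-0. Values in the libraries labelled hec1hec2 were 269.8, 245 and 283 CPM and 212, 202 and 216 CPM, and in pifQ 251, 298 and 202 CPM and 151, 148 and 131 CPM. The temperatures did not overlap, and it fell, with changes of −0.51 in Col-0 (FDR 0.00628) and −0.80 in pifQ (FDR 7.73e-05), with −0.34 in the libraries labelled hec1hec2 (FDR 0.0572). HTA13 and HTA2 fell in all 3 genotypes, with changes of −0.50, −0.46 and −0.78 and of −0.32, −0.33 and −0.45 on the log2 scale, HTA2 close to the threshold in Col-0 (FDR 0.0444). Without pifQ 22°C replicate 2 the pifQ values of HTA10, HTA13 and HTA2 were −0.66, −0.83 and −0.44. RAT5 (AT5G54640), known from its loss making roots resistant to Agrobacterium transformation, did not fall, with 0.21, 0.14 and 0.13 (FDR 0.406, 0.57 and 0.624), and its pifQ value was −0.12 without that library.

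The genes of the H2A variants differed among themselves. H2AXA (AT1G08880), the more abundant H2A.X gene, had 93.7, 112 and 110.3 CPM at 22°C and 79.4, 90.7 and 85.7 CPM at 28°C in Col-0. Levels in the libraries labelled hec1hec2 were 88.7, 107 and 112 CPM and 95.2, 91.0 and 98.8 CPM, and in pifQ 85.7, 156 and 88.5 CPM and 61.5, 84.4 and 71.7 CPM. Its log2 fold change was −0.31 in Col-0 and −0.11 in the libraries labelled hec1hec2 (FDR 0.205 and 0.676), and the fall in pifQ (−0.60, FDR 0.0113) was lost without replicate 2 at 22°C (−0.26, FDR 0.114). The other H2A.X gene, GAMMA-H2AX (AT1G54690), fell in all 3 (−0.63, −0.46 and −0.97, FDR 0.00557, 0.0301 and 7.89e-05), the last −0.86 without that library.

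HTA6 (AT5G59870), with 67.4% of the H2A.W level, had 188, 193 and 183 CPM at 22°C and 113, 102 and 95.8 CPM at 28°C in Col-0. Under the hec1hec2 label it had 196, 188 and 203 CPM and 124, 123 and 122 CPM, and in pifQ 189.8, 91.6 and 170.4 CPM and 84.5, 96.6 and 75.0 CPM. HTA6 fell, with changes of −0.86, −0.67 and −0.82 on the log2 scale (FDR 3.91e-04, 0.00304 and 6.30e-04), the last −1.08 without pifQ 22°C replicate 2. HTA7 fell in Col-0 (−0.43, FDR 0.0473), and in pifQ only without that library (−0.56, FDR 8.60e-04). HTA12 rose in the libraries labelled hec1hec2 (0.67, FDR 0.0128) and had 0.54 in Col-0 and 0.16 in pifQ (FDR 0.0739 and 0.628), the latter 0.17 without that library (FDR 0.635), at 27 to 65 counts a library. Its model overlaps AT5G02570 on the other strand by 522 bases, and since the strand setting of the counting is not given in the sources used here, its counts are uncertain, as are those of GAMMA-H2AX, HTA13, HTB9, AT1G06760 and AT2G30620, which also overlap a gene on the other strand.

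Among the 3 genes of linker histone H1, HIS1-3 (AT2G18050) rose and the other 2 did not pass the test. HIS1-3, known as the linker histone gene that responds to drought and abscisic acid, had 93, 86 and 86 counts (23.8, 19.5 and 18.2 CPM) at 22°C and 347, 317 and 375 counts (75.5, 85.6 and 76.9 CPM) at 28°C in Col-0. Under the hec1hec2 label the values were 15.4, 18.5 and 20.6 CPM and 82.5, 64.5 and 76.7 CPM. In pifQ the values were 25.4, 33.2 and 23.1 CPM and 87.5, 86.0 and 61.2 CPM. The lowest 28°C library was well above the highest at 22°C in each genotype, and the gene was 3.87-fold higher at 28°C in Col-0 (log2 1.95, SE 0.17, FDR 5.71e-09), 4.12-fold in the libraries labelled hec1hec2 (log2 2.04, SE 0.17, FDR 1.71e-09) and 2.88-fold in pifQ (log2 1.53, SE 0.16, FDR 1.49e-07). Without pifQ 22°C replicate 2 the log2 value in pifQ was 1.69.

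AT2G30620, the H1 gene with the highest level, had 172, 215 and 207 CPM at 22°C and 159, 177 and 186 CPM at 28°C in Col-0. Libraries labelled hec1hec2 had 154, 208 and 215 CPM and 171, 169 and 149 CPM, and in pifQ 157, 273 and 162 CPM and 124, 196 and 145 CPM. Its log2 fold changes were −0.19, −0.24 and −0.34 (FDR 0.49, 0.353 and 0.17), with overlap throughout, and the pifQ value was −0.03 without replicate 2 at 22°C (FDR 0.889). AT1G06760 had −0.05, 0.02 and −0.39 (FDR 0.851, 0.95 and 0.0656), and −0.10 in pifQ without replicate 2 at 22°C. HIS1-3 made up 14.1% of the summed H1 level over all libraries. The sum of the 3 H1 genes in pifQ changed side with 1 library, from 0.932 of the level at 22°C to 1.14 without replicate 2 at 22°C.

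**Figure D5:**
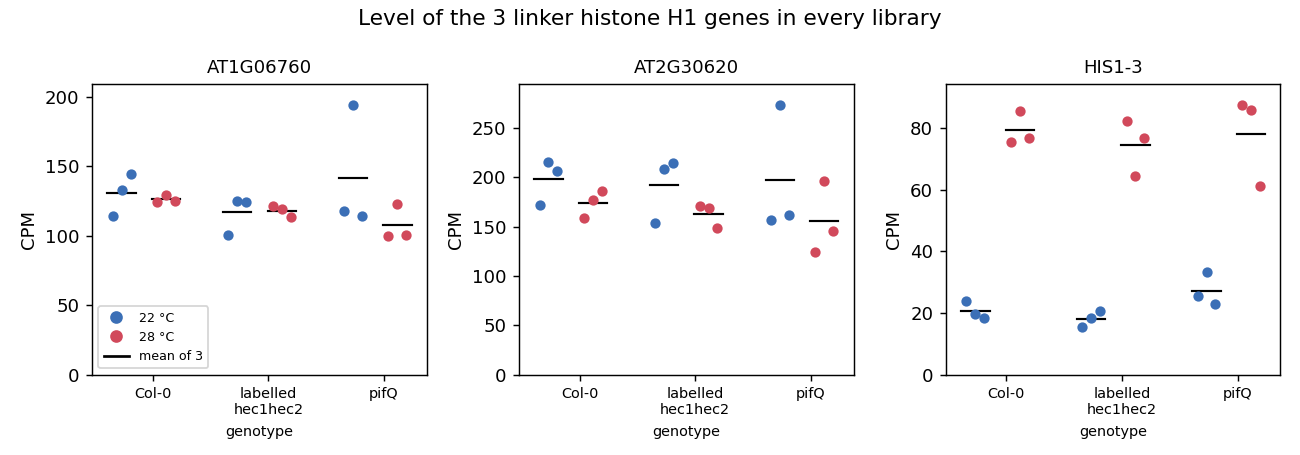
Level in CPM of the 3 linker histone H1 genes in each library, by genotype and temperature, with the mean of each group of 3 libraries. HIS1-3 lies between 15.4 and 33.2 CPM at 22°C and between 61.2 and 87.5 CPM at 28°C, while the temperatures overlap for the other 2 genes.

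Between genotypes no histone gene passed the test at an FDR of 0.05. For the libraries labelled hec1hec2 against Col-0 the count was 0 of 37 at 22°C and 0 of 37 at 28°C, where 1.7% and 1.44% of all tested genes were called, and for pifQ against Col-0 it was 0 and 0 (0.0553% and 1.47%; edgeR's quasi-likelihood test). At an unadjusted p below 0.05 there were 2, 3, 6 and 5 genes in the same order. The share of all genes at that unadjusted cut was not computed, here or for the interaction term below. Such counts therefore have no background to be read against. The gene nearest to the threshold was the H4 gene AT3G53730 in pifQ against Col-0 at 28°C, with a log2 fold change of −0.47 (SE 0.13, FDR 0.0607). With pifQ 22°C replicate 2 left out of the fit, this gene and AT5G59970 were called lower there (−0.47 and −0.52, FDR 0.00882 and 0.0322), when 2.68% of all genes were. By the interaction term, 0 of the 37 genes had a temperature response that passed the test for a difference from Col-0 in the libraries labelled hec1hec2 (0.0166% of all genes called, 2 of the 37 at an unadjusted p below 0.05) or in pifQ (0.0608% and 2 of the 37). Without pifQ 22°C replicate 2 the count was also 0 for this term in pifQ and for pifQ against Col-0 at 22°C. With so few of all genes called, 0 of 37 lies near their share in these comparisons and is no result about the histone genes. The values themselves leaned to 1 side in pifQ against Col-0 at 28°C. There 35 of the 37 log2 fold changes were negative, beside 8983 of 18078 over all tested genes. Their median was −0.20, also without pifQ 22°C replicate 2, beside 0.00 over all genes. It was −0.03 in pifQ at 22°C, and −0.03 and 0.09 under the hec1hec2 label at 22°C and 28°C. This lean was not tested.

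Genes that act beside the histones when DNA is copied were counted in the same way, against the shares of all genes called at this FDR: 12.8% lower and 13.2% higher in Col-0, 14.3% and 14.9% in the libraries labelled hec1hec2, and 14.3% and 13.1% in pifQ. Of 23 tested genes for DNA replication, such as those for the replication clamp, the origin recognition complex and ribonucleotide reductase, 2 fell in Col-0, 0 passed in either direction in the libraries labelled hec1hec2 and 6 fell in pifQ (3 without replicate 2 at 22°C), with medians of −0.07, −0.04 and −0.23 on the log2 scale (−0.29 in pifQ without that library) and none past 2-fold. Their summed level at 28°C was 0.884 of that at 22°C in Col-0 and 0.775 in pifQ (0.803 without that library), without overlap, and 0.984 in the libraries labelled hec1hec2, with overlap. The summed H3.1 level was 0.773 to 0.994 of the summed level of these genes in Col-0 at 22°C and 0.583 to 0.622 at 28°C. Of 6 E2F and RBR genes, which regulate entry into S phase, 0, 0 and 1 fell and none rose, with 1 lower in pifQ also without that library, and their sums were 1.11, 1.07 and 1.05 of those at 22°C (1.06 in pifQ without it), with overlap. Of 15 genes for mitosis, 1 rose and 1 fell in Col-0, 3 rose in the libraries labelled hec1hec2 and 3 fell in pifQ (1 without that library). The cyclin gene CYCB1;1 was the 1 past 2-fold, in Col-0 (−1.12, SE 0.33, FDR 0.0132), and had −0.58 and −0.37 in the others (FDR 0.186 and 0.416), the latter −0.60 without pifQ 22°C replicate 2 (FDR 0.191). The summed level of the mitosis genes at 28°C was 1.03 of that at 22°C in Col-0, with overlap, and 1.28 in the libraries labelled hec1hec2 and 0.832 in pifQ (0.862 without that library), without overlap. Of 20 histone chaperones and H3.1 readers, which carry histones to DNA or bind H3.1 there, 1 rose and 2 fell in Col-0, 1 fell in the libraries labelled hec1hec2, and 1 rose and 1 fell in pifQ (2 and 2 without that library). Their sums at 28°C were 0.896, 0.917 and 0.909 of those at 22°C (0.942 in pifQ without that library), without overlap in any genotype.

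Other tissue markers moved with temperature too, and their counts are to be read beside the same shares of all genes as above. Of 4 root markers, 2 fell by 2-fold in Col-0, PRP3 (−1.24, FDR 2.21e-04) and COBL9 (−1.05, FDR 0.024), 1 rose at an FDR of 0.05, 1 rose and 1 fell in each of the other genotypes, and their summed level was 0.876, 0.917 and 0.991 of that at 22°C in the 3 genotypes, with overlap (0.916 in pifQ without replicate 2 at 22°C). Of the 3 shoot markers, 1 rose and 1 fell in each genotype, RBCS1A past 2-fold in the libraries labelled hec1hec2 (−1.09, FDR 4.17e-08), and the sums at 28°C were 0.791, 0.692 and 0.785 of those at 22°C, without overlap (0.890 in pifQ without that library). Of the 3 meristem markers only STM could be tested, which did not pass (0.69, −0.27 and 0.09), and the sums of the 3 overlapped between temperatures in each genotype. Of the 2 guard cell markers, KAT1 rose in Col-0 (0.72, FDR 0.0249) and past 2-fold in the libraries labelled hec1hec2 (1.21, FDR 1.48e-04), and had −0.55 in pifQ (FDR 0.129), or −0.78 without replicate 2 at 22°C (FDR 0.0164). MYB60, the other, had −0.26 in Col-0 and −0.46 in the libraries labelled hec1hec2 (FDR 0.425 and 0.117) and fell in pifQ (−0.78, FDR 0.00585), a call that was lost without that library (−0.47, FDR 0.0587). The guard cell sums at 28°C were 1.19 of those at 22°C in Col-0, with overlap, and 1.45 and 0.615 in the other genotypes (0.667 in pifQ without that library), without overlap. Of the 2 seed markers, CRA1 went from a median of 1, 0 and 1 counts to 23, 62 and 55 while SESA4 stayed at 3 counts or fewer. The rise of CRA1 passed the test in each genotype (log2 4.62, 4.93 and 5.13, FDR 1.95e-05, 5.13e-07 and 1.84e-06, edgeR), and its pifQ value was 5.59 without replicate 2 at 22°C. The part of these cell types in the histone results was not tested.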

How the data were processed

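Per the labels, 3′ Tag-Seq was done on whole seedlings in 6 groups of 3 libraries. The authors checked reads with FastQC, aligned them with TopHat and Bowtie2 to TAIR10 and deposited raw HTSeq counts per gene, not normalized. Program versions, strand setting and treatment of duplicate reads are not given in the sources used here. The study's text gives 3 biological replicates for the RNA-seq. Nothing in the labels says that replicates came from separate cultures, so p-values measure the spread between these libraries.

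The members and gene lists were chosen with earlier results of these data known. From the deposited counts, R 4.3.3 with edgeR 4.0.16 was used: TMM scaling, the filterByExpr filter and the quasi-likelihood test in 1 model for all 18 libraries by group, with Benjamini-Hochberg adjustment (FDR) over 18078 genes. Depth was 3631558 to 6285632 counts a library, and the floor was 3 counts. Standard errors were derived from each log2 fold change and its F statistic. Values per library are given for the H3 genes, for members past 2-fold at an FDR of 0.05 in any genotype and for the most abundant member of each family. In 5 draws of simulated data for the response in Col-0, 73 to 85 of 100 genes with a true log2 change of 1 and 48 to 56 of 100 with one of 0.7 passed the FDR, as did 6 to 14 unchanged genes of 17795 to 17826 run. For the libraries labelled hec1hec2 78 to 88 and 47 to 54 of 100 passed, and for pifQ 77 to 91 and 41 to 54. These numbers describe the simulated draws only. They are not a recovery rate for the real pifQ libraries, of which 1 lost counts in steps, or for genes with few counts.

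Alternatives were RLE scaling, DESeq2 1.42.0, no filter, only the groups compared, the replicate number as a block, thinning to the smallest total, plain CPM, each H3 gene left out and each library left out. Offsets for the steps in pifQ 22°C replicate 2, and each library left out of the family sums, were chosen after seeing the data. Sequences and gene models are from RefSeq TAIR10.1, matched by locus for 37 of 37 members.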

Additional observations from a re-analysis of the deposited data

How the results depend on the processing

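No called value was reversed by an alternative, but calls were lost and gained. With a library left out, 32, 41 and 34 of 666 values lost their call (Col-0, libraries labelled hec1hec2 and pifQ). In the same order, 3, 10 and 11 gained one. Of these 18 fits, the call of HTA7 in Col-0 was lost in 13 and that of HTA2 there in 11. That of AT5G59690 in pifQ was lost in 12, and those of HTB2 in pifQ and AT1G07820 under the hec1hec2 label in 11 each. Of 296 values in the other fits, 5, 5 and 11 lost a call and 7, 19 and 10 gained one. The number of histone genes called at both 2-fold and the FDR in Col-0, 2 as reported, was 4 with RLE scaling, with DESeq2 and without a filter, 5 with only the groups compared, and 2 to 5 with a library left out (5 without Col-0 22°C replicate 1 or 28°C replicate 1, 4 without Col-0 28°C replicate 2 or pifQ 28°C replicate 1). In the libraries labelled hec1hec2 it was 1 after thinning to the smallest total and 1 to 3 with a library left out, and the count at the FDR alone was 14 to 26. For pifQ against Col-0 at 28°C, with 0 called, DESeq2 called 1, only the groups compared 2 and the step offsets 2, and leaving out a library gave 0 to 2 (1 without Col-0 28°C replicate 3). The difference in H3.1 share (28°C minus 22°C) in Col-0 was −7.29 percentage points without AT5G65360, −7.15 without AT1G09200 and −11.8 without AT5G10980. Under the hec1hec2 label it was −3.74 without AT1G09200, −4.36 without AT3G27360, −4.05 without AT4G40040 and −7.11 without AT5G10980, and in pifQ −4.57 without AT1G09200, −9.67 without AT4G40040 and −9.11 without AT5G10980. With plain CPM the ratios under that label were 0.881 for H2A, 0.771 for H2A.W, 1.01 for H3.3 and 0.656 for H4. Beyond the alternatives whose construction shows it (fewer genes or libraries), the cause was not tested. Depth limits the genes with few counts, AT3G09480 above all.

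The replicate number as a block gave 24, 23 and 25 histone genes called at the FDR alone in Col-0, the libraries labelled hec1hec2 and pifQ, and 2, 2 and 10 with 2-fold as well. The block added HTA10 under the hec1hec2 label and AT1G07660 and AT1G06760 in pifQ, and took away AT5G59690 in pifQ, and it changed no other call of a histone gene. Libraries with the same number had deviations that correlated above 0.1 in 22 of 45 pairs (median 0.0955), and those with different numbers in 7 of 90 (median −0.0573). Same-numbered libraries thus deviated alike more often than others, though not every such pair passed 0.1. The main fit has no block for the number, and the calls with a block are those given above.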

Other observations

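Outside the canonical genes, 2 H2A.Z genes, picked out after their values were seen, went opposite ways. H2A.Z is the H2A variant found at the first nucleosomes of genes and known in Arabidopsis from work on temperature. HTA11 was lower at 28°C in each genotype, with log2 fold changes of −0.49 in Col-0, −0.41 in the libraries labelled hec1hec2 and −0.66 in pifQ (FDR 0.0108, 0.0254 and 7.91e-04, edgeR's quasi-likelihood test). HTA9 was higher, with 0.43, 0.30 and 0.56 (FDR 0.00445, 0.038 and 3.34e-04, same test). Without pifQ 22°C replicate 2 the pifQ values were −0.73 and 0.69. Of 11 other histone genes listed, 5 passed the filter on low counts.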
